A study of Mus musculus with 15 samples.

Results

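Liver sinusoidal endothelial cells line the smallest blood vessels of the liver, and the 10 genes described here mark either these cells or blood vessel endothelium in general. The sinusoid-specific set was Stab1, Stab2, Clec4g, Dnase1l3 and Lyve1, and the general endothelial set was Flt4, Kdr, Tek, Tie1 and Cdh5. They were taken by gene symbol from the annotation of the array, where Lyve1 stands under the older symbol Xlkd1 and was matched by its Entrez gene number. They had 17 probes, of which 16 passed the filter on dim probes, and all 10 genes were among the 19335 genes tested. In tumor nodules the sinusoid-specific genes Clec4g and Dnase1l3 were 7.92-fold and 6.72-fold lower than in control liver, while the general genes Tek, Tie1 and Cdh5 were not called different from control liver. The sets did not split cleanly. Lyve1 and the general gene Flt4 were called lower too, a call that held under 11 and 9 of 29 alternative analyses. Stab1, Stab2 and Kdr were not called. After 72 hours of MYC shutoff by doxycycline the general genes Tek, Tie1 and Cdh5 were 4.04-fold to 4.96-fold higher than in control liver, and Clec4g was still 4.09-fold lower. That call of Clec4g held under 17 of 29 alternative analyses, and its other probes were not called. The sinusoid-specific gene Stab1 was 2.69-fold higher than in control liver, though its second probe was not called. The general genes Flt4 and Kdr were not called.

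RNA was measured on 15 one-colour Agilent whole-genome mouse arrays, with 4 pre-tumor livers, 4 tumor nodules, 4 early tumor regression samples and 3 control livers. All mice were FVB/N, and all carried LAP-tTA, a doxycycline-repressed activator made from a liver-enriched promoter. Pre-tumor, tumor and regression mice carried TRE-MYC as well, a MYC transgene that the activator switches on when doxycycline is absent, and control mice had LAP-tTA alone. All ate chow with 200 mg/kg doxycycline up to an age of more than 8 weeks. Pre-tumor livers were collected when the chow had been withdrawn for 4 to 5 weeks, and tumor nodules when it had been withdrawn for 8 to 9 weeks. Regression samples came from mice that were 8 to 9 weeks off doxycycline and then back on it for 72 hours. For controls the time without doxycycline is not stated in the labels, nor whether separate arrays are separate animals, so p-values measure the spread between these arrays, which may be technical. The LAP promoter drives the activator in liver cells.

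Sinusoidal endothelium differs from other capillaries in having open pores and no continuous basement membrane, and it clears waste molecules from the blood by scavenger receptors. Cultured sinusoidal cells and those of diseased liver are known to lose these features, a change called capillarisation. Vessel growth in any tissue depends on the VEGF receptors and on the angiopoietin and TIE receptor system, which stabilises vessels, and endothelial cells are held together by VE-cadherin.

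Stab1 (Entrez gene 192187, probe at chr14:29968111-29968170) and Stab2 (192188, chr10:86271252-86271311) encode stabilin scavenger receptors. Stab1 is also made by some macrophages. Clec4g (75863, chr8:3716182-3716241) encodes the C-type lectin LSECtin, and Lyve1 (114332, chr7:110643335-110643393) a hyaluronan receptor shared with lymphatic vessels and some macrophages. Dnase1l3 (13421, chr14:6758774-6758833) encodes a secreted nuclease that digests DNA in blood. Among the general genes, Kdr (16542, chr5:76214981-76215040) encodes the main VEGF-A receptor of endothelium and Flt4 (14257, chr11:49495567-49495626) the receptor for VEGF-C and VEGF-D. Tek (21687, chr4:94366188-94366246) encodes the angiopoietin receptor, Tie1 (21846, chr4:117969459-117969518) its partner receptor, and Cdh5 (12562, chr8:107032728-107032787) VE-cadherin. Probe positions are those of the authors' table, which names no genome build, and exons and UTRs were not analysed here.

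The start regions of 4 members are shown because these genes took the different courses described below: Stab1 and Clec4g from the sinusoid-specific set, and Tek and Tie1 from the general set. Each is 300 bases from RefSeq, build GRCm38.p6, on the gene's own strand and running from 250 bases before to 50 after the annotated start. They lie at chr14:31168592-31168891 (minus strand), chr8:3720602-3720901 (minus), chr4:94739039-94739338 (plus) and chr4:118489800-118490099 (minus). Capitals mark the word CAGGAA, a form of the core bound by ETS factors, which are known regulators of endothelial genes, and its reverse complement TTCCTG.
Stab1: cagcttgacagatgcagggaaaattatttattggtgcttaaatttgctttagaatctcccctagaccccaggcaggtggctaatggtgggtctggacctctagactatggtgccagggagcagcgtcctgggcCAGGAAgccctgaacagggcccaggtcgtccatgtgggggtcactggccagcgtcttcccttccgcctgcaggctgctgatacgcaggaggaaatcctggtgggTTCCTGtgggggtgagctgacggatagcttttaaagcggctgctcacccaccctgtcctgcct
Clec4g: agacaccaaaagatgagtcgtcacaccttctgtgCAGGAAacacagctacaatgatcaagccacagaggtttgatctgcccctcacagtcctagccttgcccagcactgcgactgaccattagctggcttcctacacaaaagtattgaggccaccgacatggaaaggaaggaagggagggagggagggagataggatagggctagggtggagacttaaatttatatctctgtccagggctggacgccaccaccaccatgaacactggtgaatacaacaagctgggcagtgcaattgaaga
Tek: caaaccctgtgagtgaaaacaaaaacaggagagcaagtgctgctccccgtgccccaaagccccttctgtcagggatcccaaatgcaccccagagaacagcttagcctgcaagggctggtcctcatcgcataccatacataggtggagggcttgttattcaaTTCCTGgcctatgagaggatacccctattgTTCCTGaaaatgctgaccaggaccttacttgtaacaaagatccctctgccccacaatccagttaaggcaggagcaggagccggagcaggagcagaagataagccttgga
Tie1: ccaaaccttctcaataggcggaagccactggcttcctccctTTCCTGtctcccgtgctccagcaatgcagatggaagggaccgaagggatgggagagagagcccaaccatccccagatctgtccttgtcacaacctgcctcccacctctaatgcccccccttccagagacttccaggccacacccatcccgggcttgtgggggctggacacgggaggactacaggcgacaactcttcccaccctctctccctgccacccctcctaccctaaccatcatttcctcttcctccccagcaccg
The word begins at positions -117 and -13 from the start in Stab1, at -216 in Clec4g, at -89 and -59 in Tek and at -209 in Tie1. Promoters of 7 of the 10 members were in the table (Stab1, Stab2, Clec4g, Flt4, Kdr, Tek and Tie1), and 5 of them held the word on either strand, against 30.6% of all 32851 promoters of this length. The GATA-type word AGATAA, searched on both strands as well, stood in 1 of the 7, Tek, against 11.2% of all promoters, and overlapped no ETS-type word. These matches describe the letters in the window, and binding was not measured.

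Levels are given as the log2 of the processed Cy3 signal minus the 75th percentile of the same array, so that 0 is that percentile, and a level of 1 probe cannot be set against that of another. The share of spots well above background lay between 46.4% (tumor 3) and 90.8% (pre-tumor 4), and the median processed signal between 6.78 and 71.3, on the same arrays. On each array 9 or 10 of the 10 members were well above background, except on tumor 3, where 5 were. Results are given without these arrays where that changes them. The arrays lay on 4 slides, each with at most 1 array of a group, and were scanned on 1 day. As a check of the labels, Afp, the fetal albumin-like protein, was 11.80 log2 units higher in tumor nodules than in control liver, and 1 of 3 Myc probes was 5.16 higher. That Myc probe was 4.66 lower in regression samples than in tumor nodules, while a second was 1.64 higher. In pre-tumor livers against controls the first Myc probe was 2.06 higher (adjusted p by limma = 0.869), and no Myc probe was under 0.05 there. Precision is limited by the small number of arrays in a group.

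The stabilins were lowest in tumor nodules. Stab1 levels were 0.61, 0.91, 0.99 and 0.07 in pre-tumor livers, -1.11, -1.45, -1.02 and -1.00 in tumor nodules, 1.44, 1.44, 1.08 and 0.89 in regression samples, and -0.05, 0.29 and -0.88 in control livers. No tumor nodule overlapped any other group for Stab1, and the regression samples lay above all controls. Stab2 levels were 0.40, 0.13, 1.29 and 0.31 in pre-tumor livers, -0.08, -0.28, -1.08 and -1.00 in tumor nodules, 1.52, 1.15, 1.47 and -0.68 in regression samples, and -0.73, 0.41 and 0.41 in control livers. The Stab2 groups overlapped except that all tumor nodules lay below all pre-tumor livers, and the regression 4 array stood far below the other regression arrays.

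Clec4g and Dnase1l3 had the widest ranges of the members. Clec4g levels were 2.64, 2.75, 3.44 and 2.21 in pre-tumor livers, -0.53, -0.78, -2.66 and -1.07 in tumor nodules, -1.24, 0.29, 0.79 and -1.05 in regression samples, and 1.46, 2.56 and 1.16 in control livers. All tumor and regression arrays were below all control and pre-tumor arrays for this lectin, and its probe was not well above background on tumor 3. Dnase1l3 levels were 3.09, 4.03, 3.90 and 2.61 in pre-tumor livers, 0.32, -0.77, -0.37 and -1.12 in tumor nodules, 1.79, 1.50, 2.61 and 0.52 in regression samples, and 1.90, 2.49 and 2.40 in control livers. For the nuclease the regression samples overlapped the controls and lay above every tumor nodule. Lyve1 levels were -0.27, -1.83, -1.17 and -0.88 in pre-tumor livers, -1.69, -1.67, -2.77 and -1.91 in tumor nodules, -2.31, -1.63, -1.03 and -1.94 in regression samples, and -1.31, -0.37 and -0.30 in control livers. Tumor nodules and regression samples overlapped for Lyve1, and both had lower means than the controls.

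Among the VEGF receptors, Kdr levels were -0.13, 0.35, 0.32 and 0.20 in pre-tumor livers, -2.06, -1.66, -1.40 and -1.60 in tumor nodules, -0.52, 0.35, 0.21 and -0.62 in regression samples, and -1.82, 0.05 and -0.28 in control livers. Control 1 lay among the tumor nodules for Kdr, far below the other controls. Flt4 levels were -2.00, -1.47, -1.54 and -1.14 in pre-tumor livers, -2.53, -2.42, -2.65 and -2.97 in tumor nodules, -2.19, -2.71, -1.51 and -2.83 in regression samples, and -1.10, -2.13 and -1.13 in control livers. All tumor nodules were below all controls and pre-tumor livers for Flt4, and the regression samples overlapped the other 3 groups.

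The angiopoietin receptor, its partner and VE-cadherin were highest in regression samples. Tek levels were -1.52, -1.00, -0.57 and -1.26 in pre-tumor livers, -2.40, -2.89, -2.65 and -2.59 in tumor nodules, -0.34, -0.64, -0.41 and -0.23 in regression samples, and -2.04, -2.19 and -3.53 in control livers. Its probe was not well above background on tumor 2, tumor 3 and control 3. Tie1 levels were 0.06, -0.40, 0.80 and 0.07 in pre-tumor livers, -0.22, -0.21, -0.02 and -0.53 in tumor nodules, 2.36, 2.20, 1.67 and 1.33 in regression samples, and -0.17, -0.37 and -0.72 in control livers. The regression samples stood above all other arrays for Tie1, and the other 3 groups overlapped. Cdh5 levels were -0.94, -1.58, -1.19 and -1.13 in pre-tumor livers, -1.63, -1.95, -1.79 and -2.01 in tumor nodules, 1.03, 0.42, 0.63 and -0.55 in regression samples, and -1.80, -1.73 and -1.36 in control livers. Regression samples were again above every other array.

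**Figure D1:**
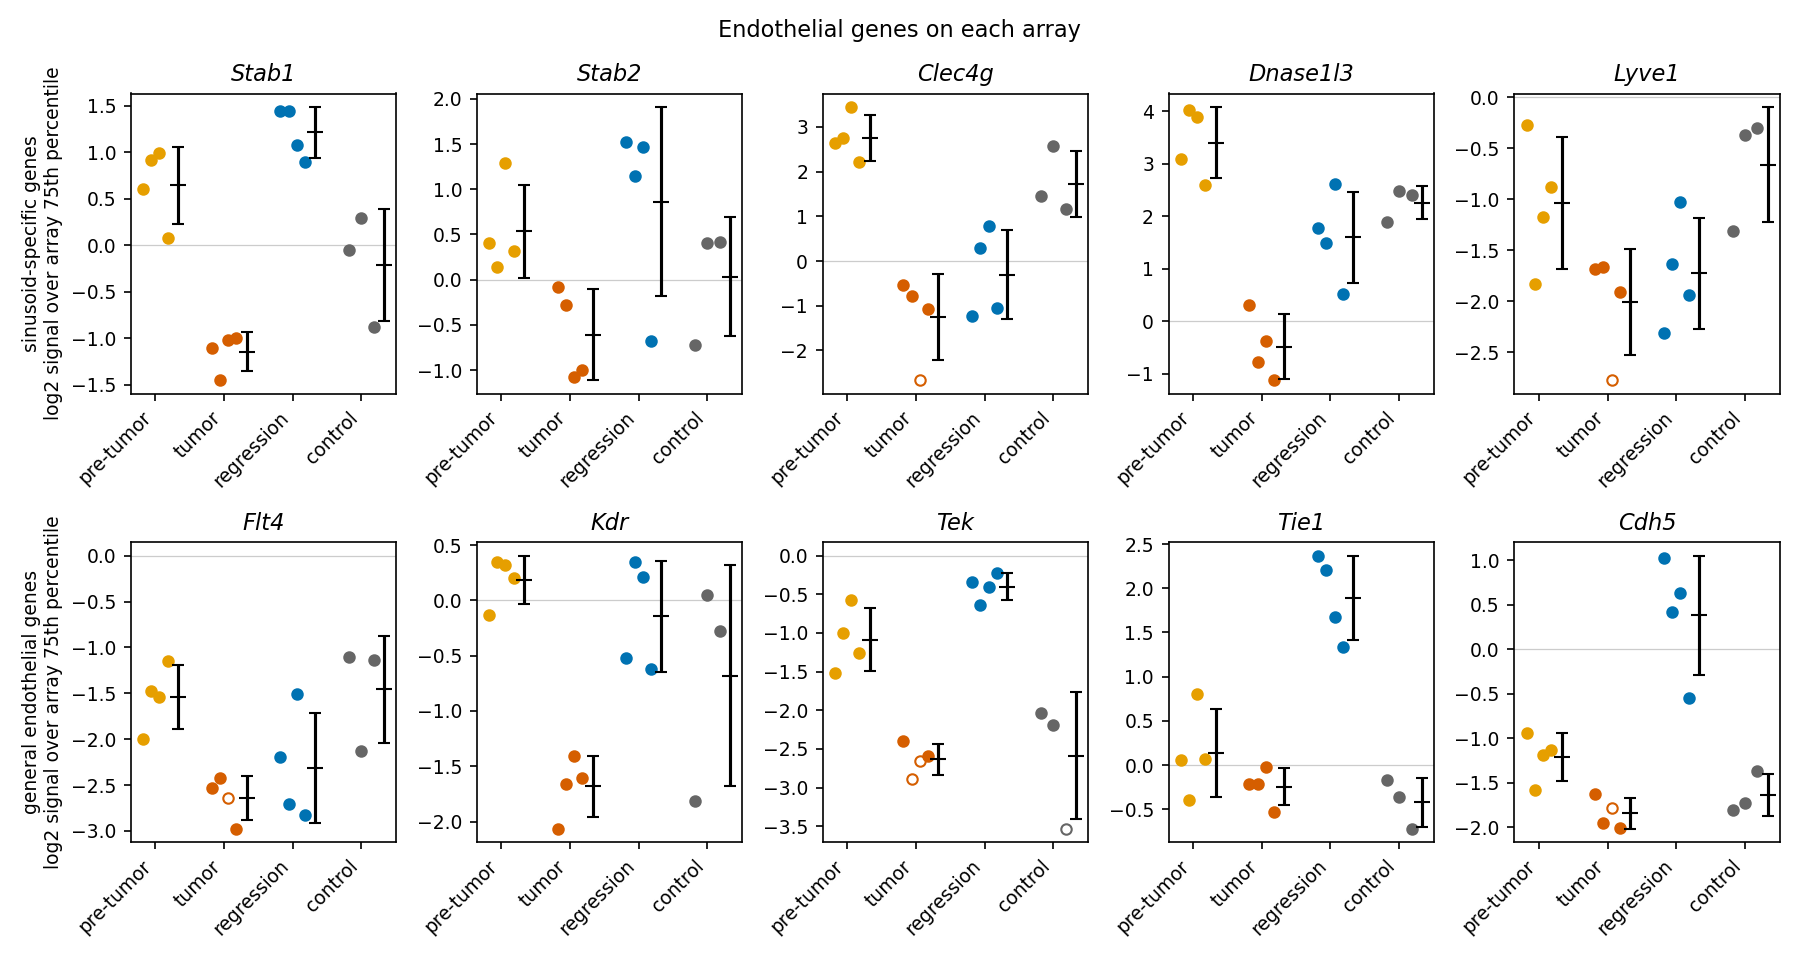
Level of each of the 10 genes on every array, as log2 processed signal over the array's 75th percentile, in the pre-tumor, tumor, regression and control groups. Open circles were not well above background, and the bar beside each group is its mean ± SD (n = 4, and 3 controls). Clec4g falls to -1.26 in tumor nodules and stays at -0.30 in regression samples, against 1.73 in controls, while Tie1 and Cdh5 stand apart only in regression samples, at 1.89 and 0.38.

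By group mean, tumor nodules had the lowest level for 9 of the 10 members, Tie1 being the exception. For Tek the tumor mean of -2.63 lay just below the control mean of -2.59, and the sign of the tumor minus control difference held in 20 of 29 alternatives (other processing, and each of the 15 arrays left out). For Cdh5 it held in 26 of 29, and with both signs turned the tumor nodules were lowest for 7 members. Regression samples had the highest for 5 members, pre-tumor livers for 3 and controls for 2, Lyve1 and Flt4. For Stab1 the order was regression samples at 1.21 ± 0.27, pre-tumor livers at 0.65 ± 0.41, controls at -0.21 ± 0.60 and tumor nodules at -1.15 ± 0.21 (SD, n = 4, and 3 controls). For Dnase1l3 it was pre-tumor livers at 3.41 ± 0.68, controls at 2.27 ± 0.32, regression samples at 1.61 ± 0.86 and tumor nodules at -0.48 ± 0.62. For Cdh5 it was regression samples at 0.38 ± 0.67, pre-tumor livers at -1.21 ± 0.27, controls at -1.63 ± 0.24 and tumor nodules at -1.84 ± 0.17, where controls overlapped both pre-tumor livers and tumor nodules. For Stab1 pre-tumor livers overlapped both regression samples and controls, and for Dnase1l3 controls overlapped regression samples.

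The differences were tested with limma in 1 model of the 4 groups, two-sided, with Benjamini-Hochberg adjustment over the 19335 genes, and a gene is called when its adjusted p is under 0.05. Comparisons share arrays: pre-tumor, tumor and regression are set against the same 3 controls, and the tumor arrays enter 3 comparisons. In bulk tissue, fewer endothelial cells and less RNA per cell cannot be told apart.

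In pre-tumor livers against control livers, which differ in the MYC transgene and perhaps in time without doxycycline, no member was called. By limma 0% of all genes were called, and 505 of 19335 had an unadjusted p under 0.05. Tek, the angiopoietin receptor, was 1.50 ± 0.37 higher (SE, adjusted p = 0.732), with all 4 pre-tumor livers above all 3 controls, and its probe was well above background on 2 of the 3. Dnase1l3 was 1.14 ± 0.50 higher and Clec4g 1.03 ± 0.59 higher, both with an adjusted p of 1.00. Tek and Dnase1l3 were the 2 members with every pre-tumor liver above every control, as in 1.89% of all genes, and no member had every pre-tumor liver below, as in 0.957%. Of the 10 members, 8 had a higher mean in pre-tumor livers. Lyve1 had a difference of -0.38 and Flt4 of -0.08. The median difference was 0.86 for the sinusoid-specific and 0.55 for the general members, beside -0.04 over all genes.

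In tumor nodules against control livers, 3 of 5 sinusoid-specific members and 1 of 5 general members were called lower, against 7% of all genes, and none was called higher, against 9.36% of all genes. The lectin gene Clec4g fell by 2.99 ± 0.59 (log2, SE, adjusted p = 0.00203), which is 7.92-fold, and the nuclease gene Dnase1l3 fell by 2.75 ± 0.50 (adjusted p = 0.00103), which is 6.72-fold. The hyaluronan receptor gene Lyve1 fell by 1.35 ± 0.44 (adjusted p = 0.0487) and Flt4 fell by 1.19 ± 0.38 (adjusted p = 0.046). In 5 members, these 4 and Stab1, every tumor nodule lay below every control, as in 11.9% of all genes, while 13.7% of all genes had every nodule above. Stab1 had a difference of -0.93 (95% interval -1.67 to -0.19, adjusted p = 0.0848), Kdr of -1.00 (-1.90 to -0.10, 0.127) and Stab2 of -0.64 (-1.75 to 0.47, 0.465). These 3 genes were not called. The differences of Tek (-0.05, interval -0.84 to 0.74), Tie1 (0.18, -0.58 to 0.93) and Cdh5 (-0.21, -0.97 to 0.55) lay on both sides of 0, and those of Tek and Cdh5 turned positive under other scalings. The median difference was -1.35 for the sinusoid-specific members and -0.21 for the general ones, beside -0.18 over all genes. The calls of Clec4g and Dnase1l3 held under all 29 alternatives, that of Lyve1 under 11 and that of Flt4 under 9. Lyve1 was lost without tumor 3 (a difference of -1.09, adjusted p = 0.120), control 2 (adjusted p = 0.150) or control 3 (adjusted p = 0.164). It was also lost, with adjusted p from 0.0516 to 0.0698, without any 1 of pre-tumor 3, pre-tumor 4, tumor 1, tumor 2, tumor 4, regression 2 and regression 4, and over all alternatives its adjusted p ran from 0.0301 to 0.177. Flt4 was lost without tumor 3 (adjusted p = 0.0707), control 1 (adjusted p = 0.154) or control 3 (adjusted p = 0.158). The same held, with adjusted p from 0.0533 to 0.0889, without any 1 of pre-tumor 2, tumor 1, tumor 2, tumor 4, regression 1 and regression 2, and over all alternatives its adjusted p ran from 0.0242 to 0.301. The probes of Clec4g, Lyve1, Flt4 and Cdh5 were each well above background on 3 of the 4 tumor nodules. That of Tek was so on 2 of the 4 and on 2 of the 3 controls. Its difference of -0.05 thus rests on dim values and cannot show that Tek did not fall. Stab1 was called without control 3 (adjusted p = 0.0326) and when its probes were averaged (adjusted p = 0.0160). Sizes were smaller in the alternative that combined normexp background correction, an offset of 50 and quantile normalization, with differences of -1.46 for Clec4g, -1.51 for Dnase1l3, -0.31 for Lyve1 and -0.13 for Flt4. With quantile normalization alone they were -2.94, -2.81, -1.11 and -0.93. Flt4 was lost with slide as a block (adjusted p = 0.131), and Kdr was called without control 1 (adjusted p = 0.0107).

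In tumor nodules against pre-tumor livers, both of the MYC transgenic line, 3 of 5 sinusoid-specific and 3 of 5 general members were called lower, against 9.1% of all genes called lower and 19.1% called in either direction. Clec4g fell by 4.02 ± 0.55 (adjusted p = 6.4e-05), which is 16.2-fold, and Dnase1l3 fell by 3.89 ± 0.46 (adjusted p = 1.63e-05), which is 14.8-fold. Stab1 fell by 1.79 ± 0.32 (adjusted p = 0.000818), Kdr fell by 1.87 ± 0.39 (adjusted p = 0.00264), Tek fell by 1.55 ± 0.34 (adjusted p = 0.00415) and Flt4 fell by 1.103 ± 0.356 (adjusted p = 0.0396). All 6 of these, with Stab2 and Cdh5, had every tumor nodule below every pre-tumor liver, as 9.46% of all genes had. The differences were -1.14 for Stab2, -0.97 for Lyve1, -0.64 for Cdh5 and -0.37 for Tie1, with adjusted p-values of 0.125, 0.122, 0.222 and 0.508. The medians were -1.79 for the sinusoid-specific and -1.10 for the general members, beside -0.13 over all genes. Within each of the 4 slides the difference ran from -5.41 to -2.98 for Clec4g, from -5.02 to -2.77 for Dnase1l3 and from -1.93 to -1.75 for Kdr. Flt4 was lost with slide as a block (adjusted p = 0.0791), without tumor 3 (adjusted p = 0.0679) and without pre-tumor 4 (adjusted p = 0.107). Its call held under 14 of 29 alternatives, and was also lost, with adjusted p from 0.0616 to 0.0883, without any 1 of pre-tumor 2, pre-tumor 3, tumor 1, tumor 2 and tumor 4. In the combined normexp, offset and quantile alternative the differences were -2.11 for Clec4g, -2.41 for Dnase1l3, -0.61 for Stab1 and -0.57 for Kdr, all 4 still called. Tek had a difference of -0.20 there and was not called (adjusted p = 0.0965). In the authors' table they were -2.98 for Clec4g, -3.21 for Dnase1l3, -1.12 for Stab1, -1.08 for Kdr and -0.55 for Tek, and with the probes of a gene averaged Clec4g had a difference of -1.61. The Tek probe was well above background on 2 of the 4 tumor nodules.

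In regression samples against tumor nodules, which asks what follows MYC shutoff, 3 of 5 sinusoid-specific and 4 of 5 general members were called higher, against 8.36% of all genes called higher and 8.46% called lower, and all 10 had a higher mean. The scavenger receptor gene Stab1 rose by 2.36 ± 0.32 (adjusted p = 0.000168), Dnase1l3 by 2.09 ± 0.46 (adjusted p = 0.00506) and Stab2 by 1.47 ± 0.49 (adjusted p = 0.0486). Of the general genes, Tek rose by 2.23 ± 0.34 (adjusted p = 0.000433), Cdh5 by 2.22 ± 0.33 (adjusted p = 0.000325), Tie1 by 2.14 ± 0.33 (adjusted p = 0.000409) and Kdr by 1.54 ± 0.39 (adjusted p = 0.0123). These correspond to 5.12-fold for Stab1, 4.69-fold for Tek, 4.67-fold for Cdh5 and 4.40-fold for Tie1. The Tek probe was well above background on 2 of the 4 tumor nodules, so its fold rests on dim values there. In the combined normexp, offset and quantile alternative the differences were 0.88 for Stab1, 0.45 for Tek, 0.68 for Cdh5 and 1.18 for Tie1, and in the authors' table they were 1.52 for Stab1, 1.03 for Tek, 1.27 for Cdh5 and 1.75 for Tie1, all called. In 6 members, all those called but Stab2, every regression sample lay above every tumor nodule, as in 10.8% of all genes, while 13.1% had every sample below. Clec4g had a difference of 0.96 (interval -0.20 to 2.12, adjusted p = 0.310), Flt4 of 0.33 (-0.43 to 1.09, 0.675) and Lyve1 of 0.28 (-0.59 to 1.15, 0.785). The medians were 1.47 for the sinusoid-specific and 2.14 for the general members, beside -0.13 over all genes. The call of Stab2 held under 11 of 29 alternatives, and without regression 4 its rise was 1.99 (adjusted p = 0.00486). The call of Stab2 was lost without tumor 3 (a difference of 1.32, adjusted p = 0.119), pre-tumor 4 (adjusted p = 0.0535) or regression 3 (adjusted p = 0.142). It was also lost, with adjusted p from 0.0554 to 0.139, without any 1 of control 2, control 3, pre-tumor 1, pre-tumor 2, tumor 1, tumor 2, tumor 4, regression 1 and regression 2. The call of Kdr was lost when the probes of a gene were averaged (adjusted p = 0.341).

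In regression samples against control livers, 3 of 5 general members were called higher and the sinusoid-specific members split, with 1 called higher and 1 lower. Over all genes 5.03% were called higher and 3.31% lower, 8.34% in all. Tie1 rose by 2.31 ± 0.35 (adjusted p = 0.000569), Tek by 2.18 ± 0.37 (adjusted p = 0.00132) and Cdh5 by 2.01 ± 0.36 (adjusted p = 0.00179), with every regression sample above every control, as 10.2% of all genes had. Stab1 rose by 1.43 ± 0.35 (adjusted p = 0.0176) and Clec4g fell by 2.03 ± 0.59 (adjusted p = 0.0447). The calls of Tie1, Tek and Cdh5 held under all 29 alternatives. That of Stab1 held under 24 of 29. It was lost with slide as a block (adjusted p = 0.0518), with only the 2 groups compared (adjusted p = 0.0550), and without control 3 (adjusted p = 0.101), regression 1 (adjusted p = 0.0532) or regression 2 (adjusted p = 0.0569). That of Clec4g held under 17 of 29. Without control 2 the difference of Clec4g was -1.61 (adjusted p = 0.149), without regression 1 it was -1.72 (adjusted p = 0.134) and without regression 4 it was -1.78 (adjusted p = 0.100). Its call was also lost, with adjusted p from 0.0551 to 0.0860, without any 1 of control 1, control 3, pre-tumor 1, pre-tumor 2, tumor 2 and regression 2, and over the alternatives its adjusted p ran from 0.00581 to 0.149. In the combined normexp, offset and quantile alternative the rises were 1.24 for Tie1, 0.55 for Tek and 0.65 for Cdh5, and the Tek probe was well above background on 2 of the 3 controls. Lyve1 had a difference of -1.07 (interval -2.01 to -0.13, adjusted p = 0.152), Flt4 of -0.86 (-1.67 to -0.04, 0.182) and Dnase1l3 of -0.66 (-1.72 to 0.40, 0.438). Stab2 at 0.83 and Kdr at 0.54 were not called either, with adjusted p-values of 0.344 and 0.461. The medians were -0.66 for the sinusoid-specific and 2.01 for the general members, beside -0.25 over all genes.

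**Figure D2:**
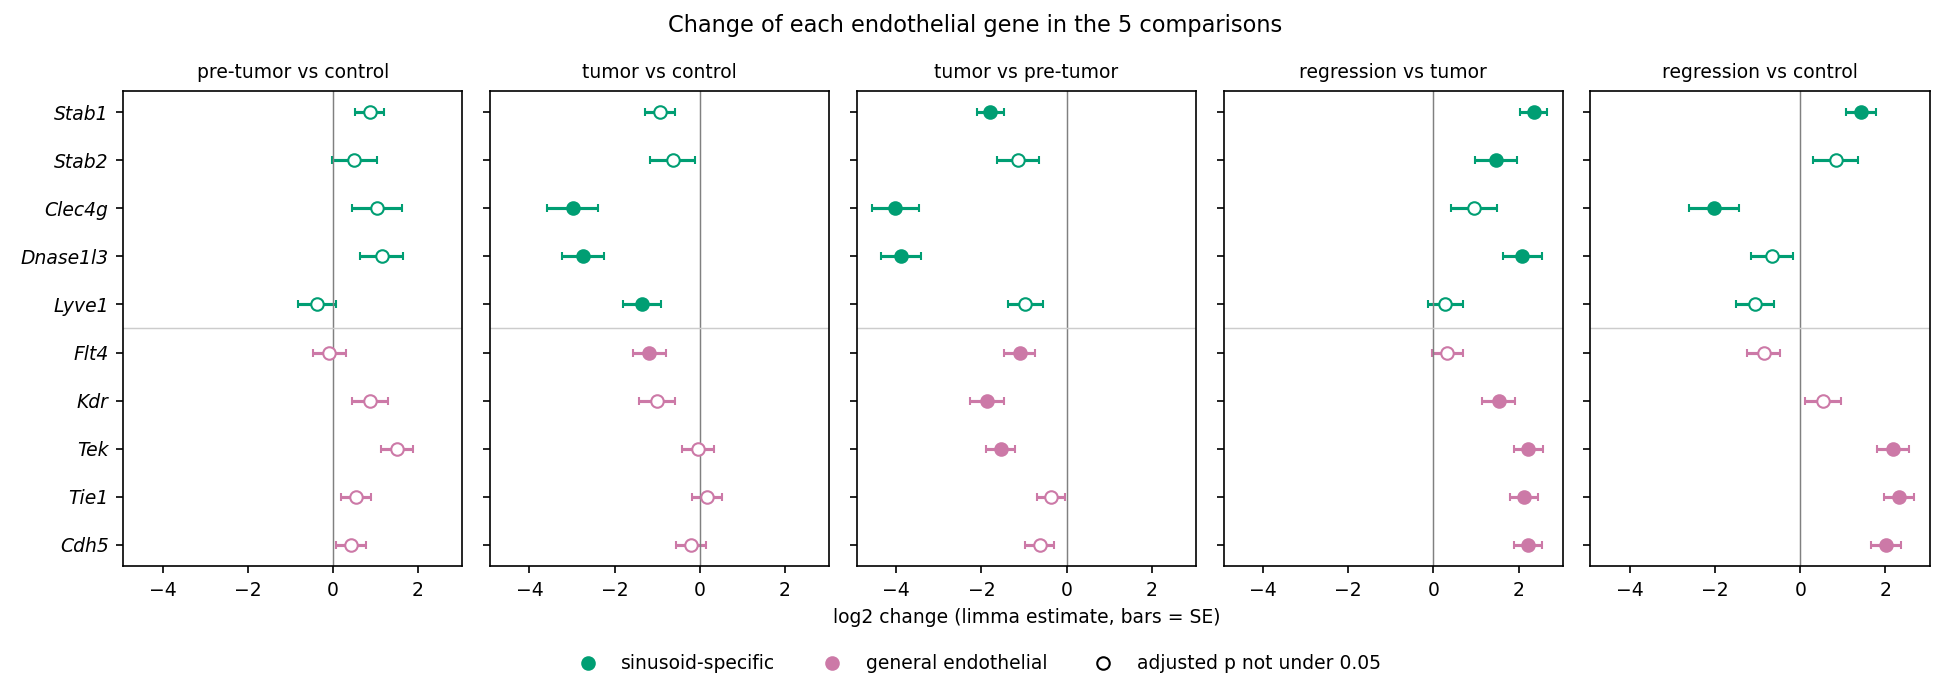
Log2 change of each of the 10 genes in the 5 comparisons, as the limma estimate with its SE, for sinusoid-specific genes (green) and general endothelial genes (pink). Open circles had an adjusted p that was not under 0.05. Against controls, tumor nodules show the large falls in Clec4g and Dnase1l3, and regression samples the rises in Tek, Tie1 and Cdh5.

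The sets were set side by side by their medians and by their mean on each array, and the difference between them was not tested. The sinusoid-specific median minus the general median was 0.31 for pre-tumor livers and -1.14 for tumor nodules, both against controls. For tumor nodules against pre-tumor livers it was -0.69. For regression samples it was -0.66 against tumor nodules and -2.67 against controls. The value for tumor against control was -0.28 under the combined normexp, offset and quantile alternative and -0.65 in the authors' table, and that for regression against control was -0.80 and -1.61, each with the same sign. For regression against tumor the sign turned, to 0.28 and 0.085. On single arrays, the general mean minus the sinusoid-specific mean lay from -2.20 to -1.52 in pre-tumor livers, from -1.15 to -0.12 in tumor nodules, from -0.86 to -0.13 in regression samples and from -2.35 to -1.64 in control livers. No tumor or regression array overlapped a control or pre-tumor array in this gap. On tumor 3, where the gap was -0.12, 3 of 5 sinusoid-specific and 2 of 5 general members were well above background. The part of dim values in the gap was not tested. Its size depends on the probes, so only its differences between arrays carry meaning. The sinusoid-specific mean was from -1.58 to -0.62 in tumor nodules and from -0.45 to 0.98 in regression samples, against 0.25 to 1.08 in controls. The general mean was from -1.94 to -1.70 in tumor nodules and from -0.58 to 0.12 in regression samples, against -1.40 to -1.27 in controls. Regression samples thus overlapped controls in the first and lay above them in the second.

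**Figure D3:**
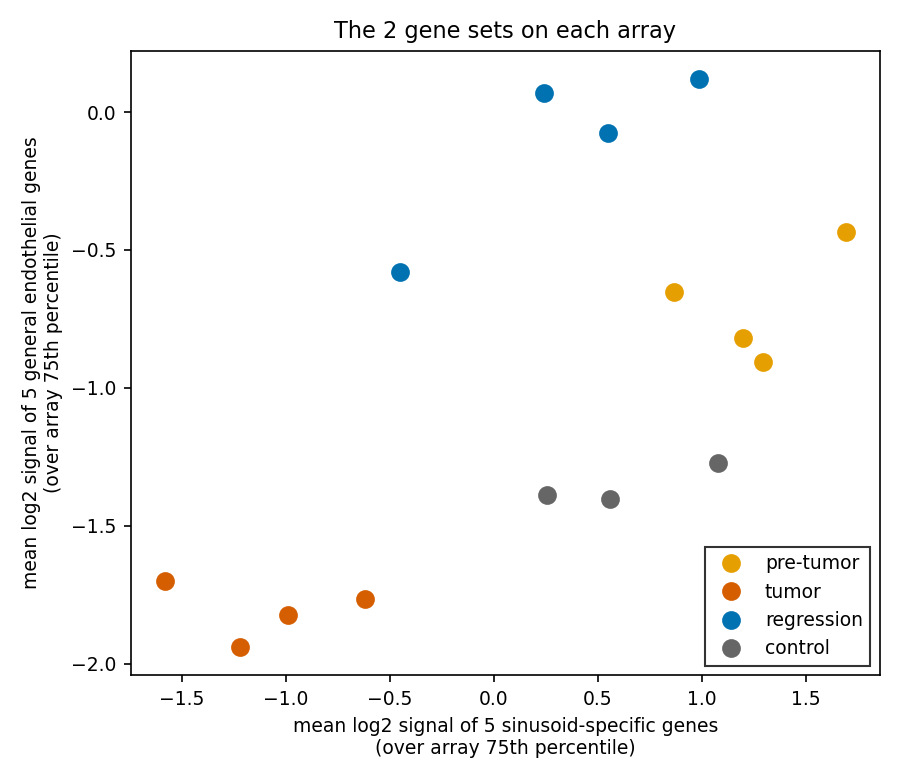
Mean log2 signal of the 5 sinusoid-specific genes (x axis) against that of the 5 general endothelial genes (y axis), 1 point per array, both over the array's 75th percentile. Tumor nodules lie low on both axes, and regression samples reach -0.58 to 0.12 on the y axis, above the controls at -1.40 to -1.27.

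Of 12 further sinusoidal genes on a separate list, 4 were called lower in tumor nodules than in controls and 8 were not called, against 7% of all genes called lower. The median difference of the 12 was -1.61. On tumor 1 to tumor 4, 6, 6, 5 and 11 of the 12 were well above background, against 10, 11 and 8 on control 1 to control 3. The sizes of the falls on this list thus rest partly on dim values. The 4 called lower were Fcgr2b, an inhibitory Fc receptor (-2.11 ± 0.40, adjusted p = 0.00174), the orphan receptor gene Gpr182 (-2.08 ± 0.61, adjusted p = 0.0296), Bmp2, which signals to hepatocytes to control iron (-1.85 ± 0.50, adjusted p = 0.0171), and Wnt2 (-1.84 ± 0.58, adjusted p = 0.0392). Against pre-tumor livers 7 of 12 were called lower, against 9.1% of all genes, with a median of -1.88, among them Fcgr2b (-2.73, adjusted p = 0.000171) and F8, the gene of coagulation factor VIII (-2.70, adjusted p = 0.00352). In regression samples 4 of 12 were called higher than in tumor nodules, against 8.36% of all genes: Mrc1, Fcgr2b, Ehd3 and Gpr182. Against controls the regression samples had 1 of 12 called higher, the mannose receptor gene Mrc1 (2.66 ± 0.45, adjusted p = 0.00123), which macrophages also make, and 1 lower, Wnt2 (-2.41 ± 0.58, adjusted p = 0.0155), against 5.03% of all genes higher and 3.31% lower. Wnt2, a Wnt ligand of the sinusoid, differed by -0.57 between regression samples and tumor nodules (adjusted p = 0.610).

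Of 24 further general endothelial genes, 1 was called higher in tumor nodules than in controls, Egfl7 (1.11 ± 0.36, adjusted p = 0.04999), a smaller share than the 9.36% of all genes, and their median of -0.18 equalled that of all genes. In regression samples 9 of 24 were called higher than in tumor nodules, against 8.36% of all genes, with a median of 1.21. Against controls 5 of 24 were called higher, against 5.03% of all genes, with a median of 0.83. The adhesion molecule gene Pecam1 was 1.85 ± 0.33 higher than in tumor nodules (adjusted p = 0.0012) and 2.05 ± 0.36 higher than in controls (adjusted p = 0.00155). Notch4, a Notch receptor of endothelium, was 2.83 ± 0.50 higher than in controls (adjusted p = 0.00164) and the matrix protein gene Mmrn2 1.87 ± 0.31 higher (adjusted p = 0.00104). Of 11 genes of continuous capillaries and sprouting vessels, 2 were called higher in regression samples than in controls, against 5.03% of all genes: Mcam (2.79 ± 0.37, adjusted p = 0.000178) and Cd34 (2.46 ± 0.57, adjusted p = 0.0131). Mcam and Unc5b (3.13 ± 0.66, adjusted p = 0.00342) were the 2 of 11 called higher in tumor nodules than in controls, against 9.36% of all genes, and Plvap, the gene of the capillary diaphragm protein, had a difference of -0.09 there.

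The ligands and co-receptors of the receptors above were a list of 10, of which 2 were called lower in tumor nodules than in controls, against 7% of all genes. In tumor nodules Vegfa, the ligand of the Kdr product, fell by 1.48 ± 0.36 against controls (adjusted p = 0.00933) and by 2.40 ± 0.34 against pre-tumor livers (adjusted p = 8.26e-05). Nrp1, a VEGF co-receptor, differed by -1.63 ± 0.44 from controls (adjusted p = 0.0176). In regression samples 4 of 10 were called higher than in tumor nodules, against 8.36% of all genes: Flt1, a VEGF receptor (1.51 ± 0.28, adjusted p = 0.00138), Nrp1 (1.64 ± 0.41, adjusted p = 0.0111), Angpt2 (1.41 ± 0.36, adjusted p = 0.0121) and Vegfa (1.32 ± 0.34, adjusted p = 0.0122). Angpt2, an angiopoietin that binds the Tek product, was 2.36 ± 0.39 higher in regression samples than in controls (adjusted p = 0.000924), and Flt1 was 1.01 ± 0.30 higher (adjusted p = 0.0478), the 2 of 10 called there, against 5.03% of all genes. The medians of the list were -0.33 in tumor nodules and 0.18 in regression samples, each against controls. Of 8 tested hyaluronan genes, the breakdown enzyme gene Hyal1 and the receptor gene Cd44 were called higher in regression samples than in tumor nodules, at 2.02 ± 0.43 and 2.34 ± 0.49 (adjusted p = 0.00403 and 0.00358), against 8.36% of all genes. Hmmr was called lower there, at -3.48 ± 0.38 (adjusted p = 2.63e-05), against 8.46% of all genes, and the median of the 8 was -0.39. Hmmr, a hyaluronan receptor gene that also serves in mitosis, was 3.58 ± 0.41 higher in tumor nodules than in controls (adjusted p = 1.48e-05). Neither of 2 tested lymphatic endothelium genes, Prox1 and Pdpn, was called in any of the 5 comparisons, with differences of -0.88 and -0.59 in regression samples against controls.

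**Figure D4:**
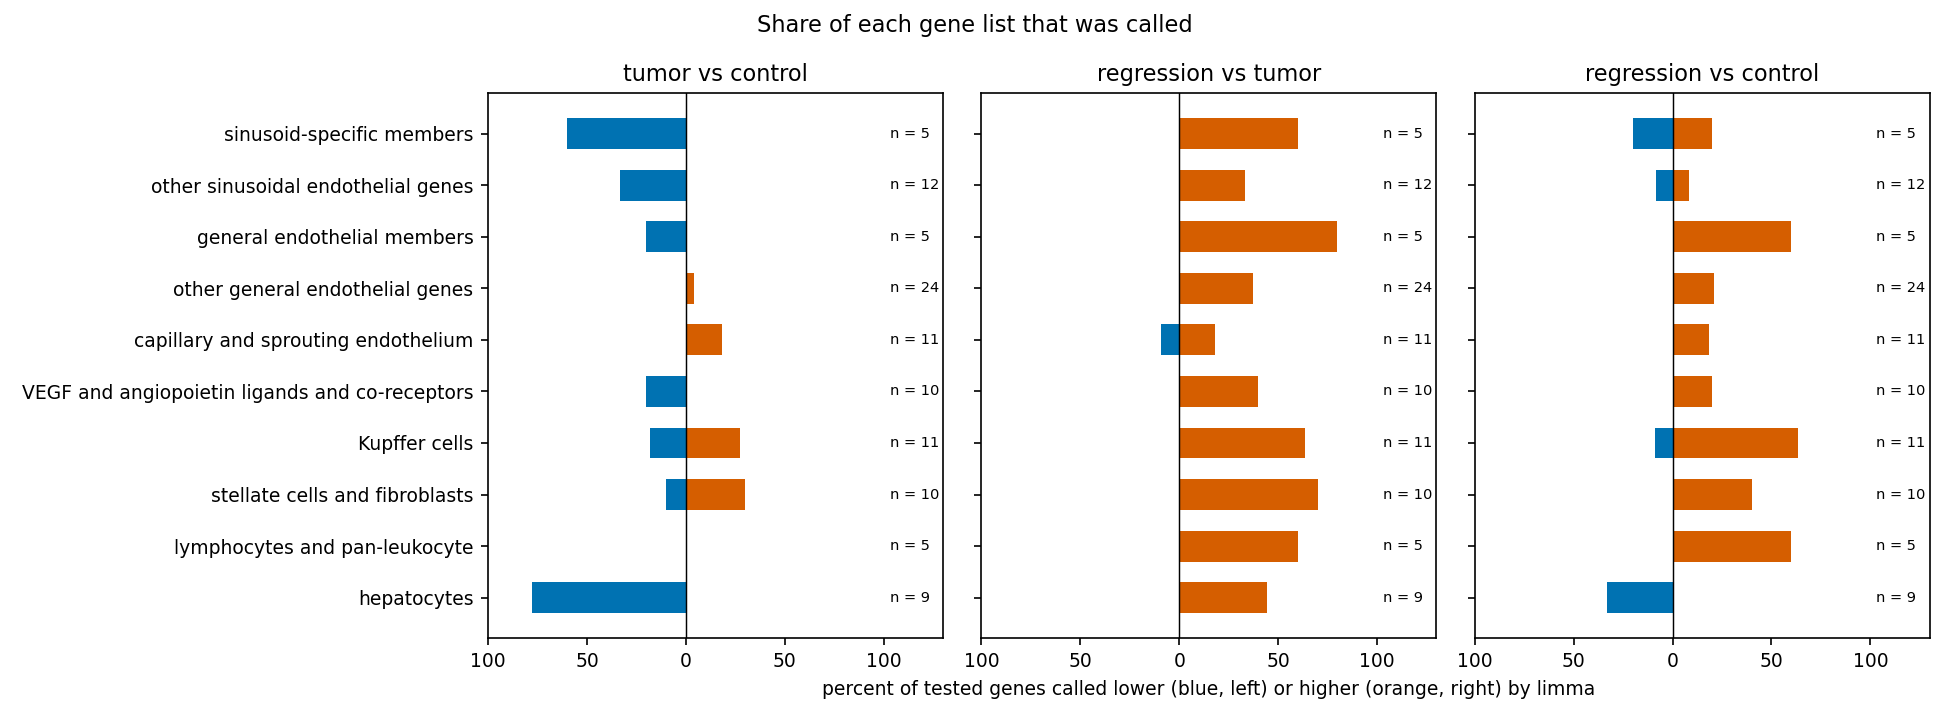
Percent of the tested genes of each list that were called lower (blue, to the left) or higher (orange, to the right) in tumor nodules against controls, regression samples against tumor nodules and regression samples against controls, with the number of tested genes at the right. In regression samples against controls, 3 of 5 general endothelial members, 7 of 11 Kupffer cell genes and 3 of 5 lymphocyte genes are higher.

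Markers of other liver cells differed between the groups as well, not all in the direction of the endothelial genes. The shares of all genes to read these counts against are 9.36% called higher and 7% lower in tumor nodules against controls, 8.36% higher in regression samples against tumor nodules, and 5.03% higher and 3.31% lower in regression samples against controls. Of 11 Kupffer cell (liver macrophage) genes, 7 were called higher in regression samples than in controls and 1 lower, and their mean level ran from 0.68 to 1.30 in tumor nodules and from 2.11 to 3.22 in regression samples, against 0.01 to 1.64 in controls. In tumor nodules 3 of the 11 were called higher than in controls and 2 lower, the Kupffer cell receptor genes Clec4f and Marco. Of 10 stellate cell and fibroblast genes, 7 were called higher in regression samples than in tumor nodules and 4 higher than in controls, and their mean level ran from -0.54 to 0.31 in tumor nodules and from 0.76 to 2.24 in regression samples, against -0.65 to -0.32 in controls. In tumor nodules 3 of the 10 were called higher than in controls and 1 lower. Of 5 lymphocyte and leukocyte genes, 3 were called higher in regression samples than in controls, and their mean level was -0.47 to -0.02, against -1.46 to -1.25. None was called in tumor nodules against controls. Of 9 hepatocyte genes, 7 were called lower in tumor nodules than in controls, with a mean level of 2.21 to 3.39 in tumor nodules, 3.68 to 4.84 in regression samples and 5.35 to 6.05 in controls. All 8 cell division genes were called higher in tumor nodules than in controls, with mean levels of 2.13 to 2.43 in tumor nodules and -3.14 to -1.95 in controls. All 8 were well above background on every tumor nodule, but 3, 6 and 3 of them on control 1 to control 3, so the control means rest partly on dim values. The fewest arrays for a gene of this list was 4. Such a gene passed the filter through the tumor nodules alone, and its rise there is no independent result. All 8 were called lower in regression samples than in tumor nodules, against 8.46% of all genes. All genes of these lists passed the filter, and the part of these cells in the results for the endothelial genes was not tested. Stab1, Lyve1 and Mrc1, as said, are also made by macrophages.

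Of the members, 6 had more than 1 probe. The second probe of Stab1 fell by 1.28 ± 0.34 in tumor nodules against controls (adjusted p over all probes = 0.0166) and was 2.06 ± 0.32 higher in regression samples than in tumor nodules (adjusted p = 0.000432). The second probe of Cdh5 was 1.91 ± 0.58 higher in regression samples than in tumor nodules (adjusted p = 0.0344). Against controls, regression samples differed by 0.78 ± 0.34 at the second probe of Stab1 (adjusted p by limma over all probes = 0.174). At that of Cdh5 they differed by 2.09 ± 0.63 (adjusted p = 0.0528), and neither probe was called there. Clec4g was less uniform. Its other probes lie 8521 and 8963 bases from the one used, have no RefSeq entry in the authors' table and gave differences of -0.71 and -0.09 in tumor nodules against pre-tumor livers, and of -1.44 and -0.96 against controls, without a call. The falls of Clec4g therefore rest on 1 probe. The second probes of Kdr and Lyve1 were well above background on 5 of 15 arrays each, and that of Tek on 2.

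Some genes that are not members had profiles close to the sets over the 15 arrays, so these courses were not particular to the members. Ttr among them is on the short hepatocyte list, and which cells make the other genes was not assessed. Likeness was the root mean square difference between standardised values, in SD units, among 12620 genes well above background on at least 12 arrays. Nearest to the sinusoid-specific mean were Ghr (0.347), Serf1 (0.360), Dhrs11 (0.362), Rgn (0.375) and Gulo (0.375), against a median of 1.37 over the candidates. Nearest to the general endothelial mean were Fam20a (0.301), Tgfbi (0.355), Pla1a (0.377), Ttr (0.385) and Plpp1 (0.398), against a median of 1.42. These genes were picked for their values on these same arrays, so their differences follow from the choice and are no further support. In regression samples against controls they were 1.66 for Fam20a, 1.33 for Tgfbi, 2.42 for Pla1a, 0.95 for Ttr and 1.05 for Plpp1. For the genes near the sinusoid-specific mean they were -0.87 for Ghr, -0.11 for Serf1, -0.63 for Dhrs11, -1.55 for Rgn and -2.02 for Gulo.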

How the data were processed

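Per the labels' protocols, frozen tissue RNA was amplified with a whole transcriptome kit, labelled with Cy3 and hybridised to Agilent 4x44K arrays. The scans were processed, per the file headers, in Agilent Feature Extraction 10.5.1.1. Its processed signal is, per the file headers, a background-subtracted intensity on a linear scale. The authors also deposited a normalized table of log2 values whose method is not given in the sources used here, and it served for gene symbols and as an alternative. For the values used here, log2 of the processed signal was taken and centred on the 75th percentile of the array, outlier spots (0.452%) were left out, and probes well above background on at least 3 arrays were kept. A gene is represented by its passing probe with the highest mean. limma 3.58.1 (R 4.3.3) fitted 1 model of the 4 groups with 11 residual degrees of freedom, and the procedure was tested on simulated data. Normexp correction used the median spot signal. The other alternatives were quantile normalization, median centring, the authors' table, other filters, the mean of probes, outlier spots kept, a trended robust variance, arrays left out, models of the compared groups alone, and blocks for slide or for replicate number. The text names all 10 members, the 2 to 4 genes of each other list with the lowest adjusted p in the comparison described, Myc and Afp as a check, and the 5 genes nearest in profile to each set. Members named by a count of 5 or fewer, with Plvap, Wnt2 in regression against tumor, Prox1 and Pdpn, were added after their values were seen. The members and lists were chosen with earlier results of these data known.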

Additional observations from a re-analysis of the deposited data

Results flagged for a closer look

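Stab2 on regression 4 had a level of -0.68, while the other regression arrays had 1.52, 1.15 and 1.47, and the gap to the nearest of them was larger than the spread of a group of 4 allows by Dixon's criterion. This was the flag raised by 1 of 30 groups tested, 3 groups of 4 arrays for each of the 10 members, and chance flags about 1 in 20 groups. Regression 4 was also the lowest regression array for Stab1, Dnase1l3, Flt4, Kdr, Tie1 and Cdh5, at 0.89, 0.52, -2.83, -0.62, 1.33 and -0.55.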

How the results depend on the processing

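The number of members called was 4 in tumor nodules against controls, where 3162 of all genes were called. It was 2 under normexp with quantile normalization (3651 of all genes), quantile normalization (3488), median centring (2856) and no filter (2997). The authors' table (3722) and a model of only the 2 groups compared (2429) also gave 2. Without tumor 3 and pre-tumor 4 it was 2 as well (3237). Those 2 arrays had the lowest and highest share of spots above background, and leaving them out was chosen after seeing the data. In regression samples against controls it was 3, not 5, with only the 2 groups compared, where 1587 and not 1612 of all genes were called. With single arrays left out, the numbers called ranged from 0 to 0 for pre-tumor livers against controls, 2 to 4 for tumor nodules against controls, 5 to 7 for tumor nodules against pre-tumor livers, 6 to 7 for regression samples against tumor nodules and 3 to 5 for regression samples against controls. Over all genes the numbers called ranged in the same order from 0 to 3, 2297 to 3525, 2885 to 3973, 2415 to 3530 and 1022 to 1824. The sinusoid-specific minus general median ranged in the same order from 0.04 to 0.56, -1.38 to -0.75, -1.01 to -0.51, -0.89 to -0.18 and -2.93 to -2.30. Under normexp with an offset of 50 and quantile normalization it was -0.28 for tumor nodules against controls, 0.28 for regression samples against tumor nodules and -0.80 for regression samples against controls, and in the authors' table -0.65, 0.085 and -1.61. With the mean of probes it was -0.085 in pre-tumor and -1.75 in tumor nodules, both against controls. Without the 4 arrays with the highest signal of the E1A spike-in probes it was 0.79 in pre-tumor against control and -1.12 in tumor against pre-tumor. The causes of these moves were not tested.

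With the replicate number as a block, 2 members were called in tumor nodules against controls, while 4516 of all genes were called there in place of 3162 and 3534 in place of 1612 in regression against control. The numbers were not taken to pair the arrays, because same-numbered arrays of different groups did not all correlate positively: r ran from -0.44 to 0.61 over the 21 pairs with the same number and from -0.62 to 0.54 over the 63 with different numbers. Of the 15 arrays, 8 correlated best with one of their own number, a hint from the data and not from the design. Slide as a block gave 989 in regression against control. The median of all genes moved to 0.14 under median centring in tumor nodules against controls, against -0.18.

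Some changes turned sign, none of them called. In tumor nodules against controls, Tek was 0.10 under normexp, 0.31 under quantile normalization, 0.27 under median centring, 0.12 in the authors' table, 0.0023 with slide as a block, 0.21 without the high-E1A arrays and from -0.52 to 0.23 with single arrays left out, positive without control 1, control 2 or tumor 2. Cdh5 was 0.081, 0.11 and 0.038 under quantile normalization, median centring and in the authors' table. In pre-tumor livers against controls, Clec4g was -0.19 with the mean of probes and Flt4 was 0.12 without the high-E1A arrays and from -0.42 to 0.092 with single arrays left out, positive without control 1, control 3 or pre-tumor 1. In regression samples against controls, Kdr was -0.28 with the mean of probes and -0.032 without the high-E1A arrays, and it ranged from -0.032 (without control 1) to 0.90 with single arrays left out. Over all members and comparisons, 645 changes under other processing kept their direction and their side of the threshold, 40 lost their call, 2 gained one and 13 turned sign. With single arrays left out these numbers were 690, 50, 3 and 7.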
